A study of Rattus norvegicus with 15 samples.

Results

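Pdk4 and 8 genes of muscle fat use (Ucp3, Angptl4, Cpt1b, Acadvl, Acads, Acadm, Acadl and Hadha) were followed in the gastrocnemius muscle of fasted rats after protein restriction and after rebound feeding. All probe sets that carried the symbol of 1 of these 9 genes and no other symbol were taken, which gave 9 of 14217 genes and 13 of the 31042 probe sets other than controls. LP rats received an 8% casein diet for 4 weeks and CN rats a calorie-matched 15% casein diet for the same time. LP-R and CN-R rats had the same 2 starting diets, were then all fed 15% casein and were sampled on day 84. All were male Wistar rats bought at 3.5 weeks of age that were fasted for 16 h before sampling. Whole muscle RNA of 4 LP, 4 CN, 4 LP-R and 3 CN-R rats was measured on GeneChip Rat Genome 230 2.0 arrays, 1 for each. The rats had been picked for a body weight near the mean of their group. For the late rats the sample labels, unlike the methods of the study, let the starting diet run on until day 84, and the diets of the methods are given here. The title of CN-R replicate 4 names a control and its treatment field a restricted rat, and it was kept in CN-R. CN-R replicate 3 was not used here.

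After a night without food, muscle turns away from glucose and burns fatty acids. Pdk4, a kinase of the pyruvate dehydrogenase complex, switches that complex off and so spares pyruvate. Angptl4, a secreted protein, inhibits lipoprotein lipase at the vessel wall. Cpt1b is the muscle form of the enzyme that links long-chain fatty acids to carnitine for entry into mitochondria. There Acadvl, Acadl, Acadm and Acads start each round of beta oxidation on very long, long, medium and short chains, and Hadha is the subunit of the trifunctional protein that carries out the next steps on long chains. Ucp3 is a carrier of the mitochondrial inner membrane that is abundant in skeletal muscle. Several of these genes are targets of the PPAR nuclear receptors, which fatty acids activate, and Pdk4 is also a target of FoxO1.

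RefSeq promoters (build GRCr8, 300 bases each, ending shortly after the start) were found for 7 of the 9 genes by symbol, and those of Cpt1b and Acadl were not found. Of the 7, the promoters of Pdk4 and Acadvl are shown because their probe sets were called in LP rats, that of Ucp3 because 2 of its probe sets varied, and that of Angptl4 because its signal differed most between rats. Capitals mark AGGTCA, the hexamer bound by nuclear receptors such as PPAR. The windows lie at chr4:34568280-34568579 (minus strand) for Pdk4, chr1:164227660-164227959 (plus strand) for Ucp3, chr7:15258632-15258931 (minus strand) for Angptl4 and chr10:55236656-55236955 (minus strand) for Acadvl, and each sequence runs 5′ to 3′ along its gene.
Pdk4: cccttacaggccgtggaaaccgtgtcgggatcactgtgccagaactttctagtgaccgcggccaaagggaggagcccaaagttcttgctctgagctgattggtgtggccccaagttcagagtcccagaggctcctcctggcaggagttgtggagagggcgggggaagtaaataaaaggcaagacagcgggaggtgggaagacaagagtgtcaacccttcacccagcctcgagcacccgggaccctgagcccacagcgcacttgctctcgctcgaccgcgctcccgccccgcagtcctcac
Ucp3: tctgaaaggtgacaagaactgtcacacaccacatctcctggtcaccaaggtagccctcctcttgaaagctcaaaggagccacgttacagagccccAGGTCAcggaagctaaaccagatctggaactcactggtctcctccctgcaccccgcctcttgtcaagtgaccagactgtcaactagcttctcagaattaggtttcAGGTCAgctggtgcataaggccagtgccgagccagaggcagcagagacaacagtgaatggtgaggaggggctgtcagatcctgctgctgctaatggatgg
Angptl4: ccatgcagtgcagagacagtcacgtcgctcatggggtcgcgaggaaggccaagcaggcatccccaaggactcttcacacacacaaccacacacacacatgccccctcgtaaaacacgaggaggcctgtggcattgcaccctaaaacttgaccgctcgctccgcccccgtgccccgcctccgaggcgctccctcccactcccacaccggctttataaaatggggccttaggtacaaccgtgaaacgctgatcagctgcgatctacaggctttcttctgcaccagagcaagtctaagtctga
Acadvl: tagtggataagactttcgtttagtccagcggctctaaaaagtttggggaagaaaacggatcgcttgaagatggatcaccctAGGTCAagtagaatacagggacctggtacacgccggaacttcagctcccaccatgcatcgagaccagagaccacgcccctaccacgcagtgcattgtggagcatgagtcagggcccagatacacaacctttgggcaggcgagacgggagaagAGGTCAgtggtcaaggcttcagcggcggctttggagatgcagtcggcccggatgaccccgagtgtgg
The hexamer AGGTCA, searched on both strands, stood in 2 of the 7 promoters and in 16.2% of all 33469 promoters of the table. Ucp3 held it at -155 and -50 and Acadvl at -169 and -17, counted from the start to the first base of the match, each on the strand of the gene. A direct repeat of the hexamer with 1 base between, the arrangement PPAR and its partner RXR bind, was in 0 of the 7 and in 0.0538% of all. The FoxO motif GTAAACA was in 0 of the 7 and in 3.78% of all, and TATAAA was in the Angptl4 window only, against 14.2% of all. These are matches of letters in short windows and do not show binding.

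The signals were log2 values that the authors made with FARMS, a method that draws a probe set toward a constant where its probes do not vary together. The early arrays (LP and CN) and the late arrays (LP-R and CN-R) had been summarized apart, so each comparison stayed within its own set. A probe set was called varying with an SD over 0.01 across the arrays of its set. Of the 13 probe sets, 8 varied in the early set, where 12.8% of all probe sets did, and 7 in the late set, against 9.99% of all. The rest held 1 value on every array of a set. Acadm stood at 12.46 in the early and 12.54 in the late set, Acadl at 12.63 and 12.25, and a further Pdk4 probe set at 13.30 and 13.24. A pair of further Hadha probe sets lay at 5.82 and 6.08 in the early and at 5.90 and 6.10 in the late set, near the lowest signals of the arrays, 5.24 and 5.38. Acadvl varied in the early set and was constant at 10.56 in the late set. For these constant probe sets no difference between rats can be read, and the late differences for Acadvl, Acadm and Acadl, down to -1.74e-05, have no use as a measurement.

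Arrays of a set correlated at 0.997 to 0.999 across probe sets. The muscle creatine kinase Ckm stood at 14.03 in the early and 14.05 in the late set. The 6 adipocyte markers measured ran from Plin1 (6.025 and 6.105) to Fabp4 (11.83 and 11.01), with Adipoq at 7.007 and 6.758, and 0 macrophage markers varied in either set. In whole muscle, fewer cells of a type and less RNA per cell cannot be told apart. Rank products over all pairs of arrays, with 100 permutations within arrays, called a probe set where the estimated share of false positives (pfp) was at most 0.05. limma, with Benjamini-Hochberg adjustment over all 31042 probe sets, called 0 in either comparison, with smallest adjusted p of 0.0742 and 0.539. Single values were tested with two-sided exact permutation tests, whose smallest possible p is 0.0286 for 4 against 4 arrays and 0.0571 for 4 against 3. Ranges after a change are 95% intervals of limma.

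After 4 weeks of restriction Pdk4 was lower and Acadvl higher in LP than in CN rats by rank products, and the means of Ucp3, Cpt1b and Hadha were slightly higher in LP rats without passing that test. Rank products called 1 of the 13 probe sets higher and 1 lower, against 1.68% and 1.58% of all. Among varying probe sets, 2 of 8 were called, close to the 25.5% of all 3974. Where varying probe sets alone were ranked, 11 of all were called higher and 20 lower, against 521 and 492. Most calls thus depend on ranking beside the constant probe sets. The mean was higher in LP rats for 6 of the 8, against 57.6% of all varying probe sets. In 0 of the 8 did the LP and CN values stand fully apart, which 7.9% of all varying probe sets did. The median change was 0.06 for the 8 and 0.02 for all varying probe sets, and the median size of change was 0.08 and 0.07.

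The log2 signal of Pdk4 was 12.10, 12.34, 12.16 and 12.48 in LP rats, against 12.49, 12.40, 12.65 and 12.47 in CN rats. LP replicates 1, 2 and 3 lay below every CN rat, and LP replicate 4 lay among the CN rats. The means were 12.27 ± 0.17 in LP rats and 12.50 ± 0.10 in CN rats (SD, n = 4 each), a change of -0.23 ± 0.10 (SE; -0.47 to 0.01), or 1.18-fold lower in LP rats. Rank products gave a pfp of 0.0149, limma an unadjusted p of 0.0537 and an adjusted p of 0.669, and the exact permutation test p = 0.0857. The call was lost without CN replicate 1 and without CN replicate 3, where the change was -0.24 and -0.18, and where varying probe sets alone were ranked.

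Acadvl had log2 signals of 10.71, 10.83, 10.89 and 10.76 in LP rats, against 10.69, 10.67, 10.65 and 10.73 in CN rats. A single value, that of CN replicate 4, reached above the lowest LP rat. The means were 10.80 ± 0.08 in LP rats and 10.68 ± 0.04 in CN rats, a change of 0.11 ± 0.04 (SE; 0.01 to 0.21). The pfp was 0.0453, the exact permutation p was 0.0571, and limma gave an unadjusted p of 0.0319 and an adjusted p of 0.637. It was the only 1 of the 13 probe sets under an unadjusted limma p of 0.05, as were 7.54% of all. The call was kept without CN replicate 1 or CN replicate 4 and lost without any other single array, with changes from 0.08 to 0.14, and it was lost where varying probe sets alone were ranked.

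**Figure D1:**
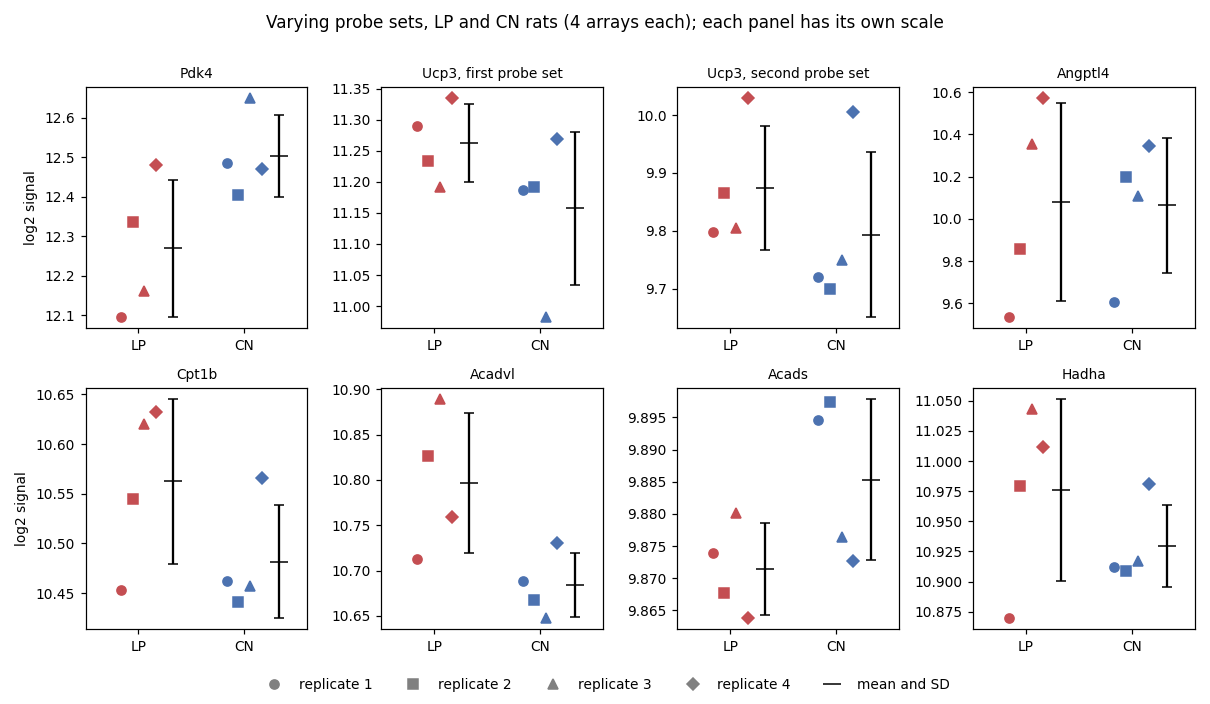
The log2 signal of each LP rat (left) and CN rat (right) is plotted for the 8 varying probe sets, with mean and SD beside the points (n = 4 each) and a separate vertical scale for each panel. For Pdk4, LP replicates 1, 2 and 3 sit below all CN rats, and CN replicate 4 is the highest CN rat for both Ucp3 probe sets, Angptl4, Cpt1b, Acadvl and Hadha.

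Of the other enzymes, Hadha had 10.87, 10.98, 11.04 and 11.01 in LP rats, against 10.91, 10.91, 10.92 and 10.98 in CN rats. LP replicate 1 was the lowest of all 8 rats, and the other LP rats lay within or above the CN values. The change was 0.05 ± 0.04 (SE; -0.05 to 0.14), with an exact permutation p of 0.343. Acads kept within a narrow band, at 9.87, 9.87, 9.88 and 9.86 in LP rats and 9.89, 9.90, 9.88 and 9.87 in CN rats. Its change was -0.01 ± 0.01 (SE; -0.03 to 0.00), with an exact permutation p of 0.143. FARMS had drawn these values close to a constant, with an SD of 0.012 over the early arrays, against 0.089 over the late ones. The interval therefore bounds the summarized signal only and not the difference in the Acads transcript.

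Cpt1b, at the gate of the mitochondrion, had 10.45, 10.54, 10.62 and 10.63 in LP rats, against 10.46, 10.44, 10.46 and 10.57 in CN rats. LP replicates 3 and 4 lay above all CN rats, and LP replicate 1 lay among them. The change was 0.08 ± 0.05 (SE; -0.04 to 0.20), with an exact permutation p of 0.229.

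Ucp3 was measured by 2 varying probe sets. The log2 signals of the first were 11.29, 11.23, 11.19 and 11.33 in LP rats, against 11.19, 11.19, 10.98 and 11.27 in CN rats. Those of the second were 9.80, 9.87, 9.80 and 10.03 in LP rats, against 9.72, 9.70, 9.75 and 10.01 in CN rats. On the second probe set, 3 CN rats lay below all LP rats while CN replicate 4 lay near the top. The changes were 0.11 ± 0.07 (SE; -0.06 to 0.27) and 0.08 ± 0.09 (SE; -0.13 to 0.29), with pfp of 0.0883 and 0.0872. The exact permutation p were 0.171 and 0.4. Without CN replicate 4 both were called higher, at changes of 0.14 and 0.15.

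Angptl4 varied most between rats. It was 9.53, 9.86, 10.35 and 10.57 in LP rats, against 9.61, 10.20, 10.11 and 10.34 in CN rats, so both groups spanned most of the same range. The change was 0.02 ± 0.28 (SE; -0.65 to 0.68), with an exact permutation p of 0.971. Of the 8 intervals this was the widest. Adipocytes are a known source of Angptl4, and the summed linear signal of the 4 varying adipocyte probe sets was 3657 to 4974 in LP rats and 3461 to 4644 in CN rats. That sum followed mainly Fabp4, whose group means were 11.90 (LP) and 11.76 (CN). The other 3 markers were far dimmer, with Cfd at 8.03 and 8.07, Adipoq at 7.20 and 6.82, and Cidec at 6.31 and 6.22. The sum is therefore no even reading of the 4 markers. The part of fat cells in the Angptl4 signal was not tested.

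**Figure D2:**
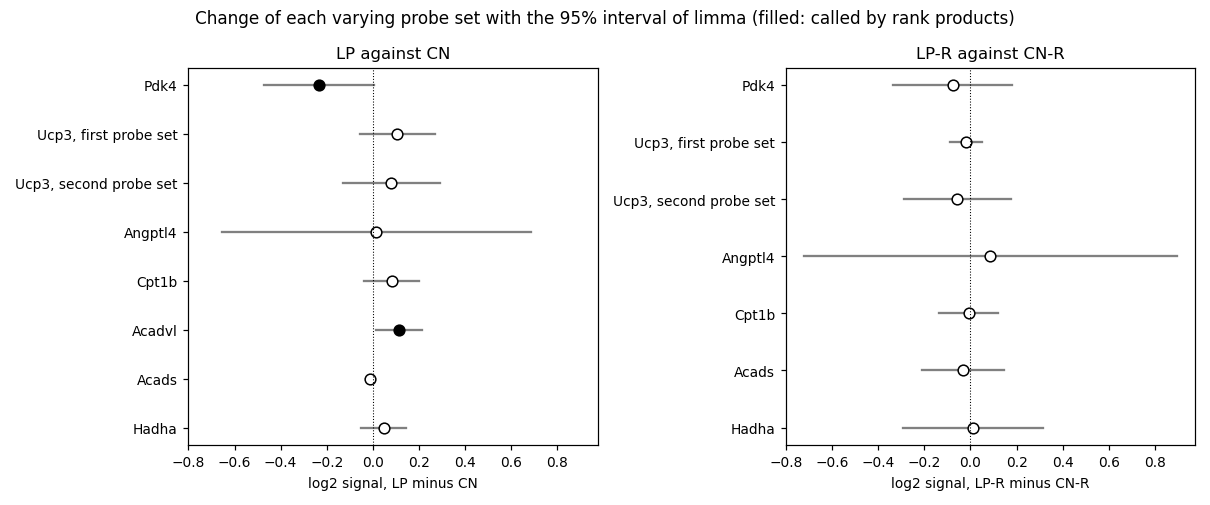
Points are mean differences in log2 signal, LP minus CN on the left and LP-R minus CN-R on the right, for each varying probe set, and lines are the 95% intervals of limma. The 2 filled points, Pdk4 at -0.23 and Acadvl at 0.11, are the called ones, and the interval of Angptl4 is the widest in both panels.

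After rebound feeding 0 of the 13 probe sets were called in either direction, against 0.345% of all higher and 0.171% lower, and none of the 7 varying ones had groups that stood apart. Among all varying probe sets 5.16% were called and 3.84% stood apart. Means were higher in LP-R rats for 2 of the 7, Angptl4 and Hadha, against 34% of all varying probe sets. The median change was -0.02 for the 7 and -0.02 for all varying probe sets. By limma 1 of the 13 had an unadjusted p under 0.05, as did 5.04% of all. It was the constant Acadvl probe set, whose means differed by -1.07e-05.

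Pdk4 was 12.15, 12.36, 12.51 and 12.53 in LP-R rats, against 12.50, 12.48 and 12.42 in CN-R rats. LP-R replicates 1 and 2 lay below and LP-R replicates 3 and 4 above every CN-R rat. The means were 12.39 ± 0.18 in LP-R rats (SD, n = 4) and 12.46 ± 0.04 in CN-R rats (SD, n = 3), a change of -0.08 ± 0.09 (SE; -0.34 to 0.18) with an exact permutation p of 0.629. Hadha split in a similar way, with 10.96, 10.85, 11.25 and 11.24 in LP-R rats, against 11.13, 11.10 and 10.97 in CN-R rats. Its change was 0.01 ± 0.11 (SE; -0.29 to 0.31). The second Ucp3 probe set was 10.59, 10.65, 10.85 and 10.92 in LP-R rats and 10.77, 10.86 and 10.80 in CN-R rats, again with LP-R replicates 1 and 2 lowest. Its change was -0.06 ± 0.08 (SE; -0.29 to 0.18).

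Cpt1b was 10.87, 10.86, 10.99 and 10.95 in LP-R rats, against 10.98, 10.95 and 10.85 in CN-R rats. The low and high LP-R rats were the same as for Pdk4 and Hadha, and the change was -0.01 ± 0.05 (SE; -0.13 to 0.12). The first Ucp3 probe set lay between 11.34 and 11.43 in LP-R rats and between 11.37 and 11.43 in CN-R rats, with a change of -0.02 ± 0.03 (SE; -0.09 to 0.05). Acads was 9.38, 9.19, 9.17 and 9.12 in LP-R rats, against 9.26, 9.29 and 9.19 in CN-R rats, with LP-R replicate 1 highest, and the change was -0.03 ± 0.07 (SE; -0.21 to 0.14). Angptl4 was 10.22, 9.43, 9.36 and 9.73 in LP-R rats, against 9.13, 10.11 and 9.56 in CN-R rats. The lowest rat was CN-R replicate 1 and the highest LP-R replicate 1, and the change was 0.09 ± 0.34 (SE; -0.72 to 0.89). Angptl4 was called higher in LP-R rats without CN-R replicate 2, at a change of 0.34. It was also called with CN-R replicate 4 placed in LP-R, although the change was then 0.04, and 331 of all probe sets were called higher in that setting, against 107.

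**Figure D3:**
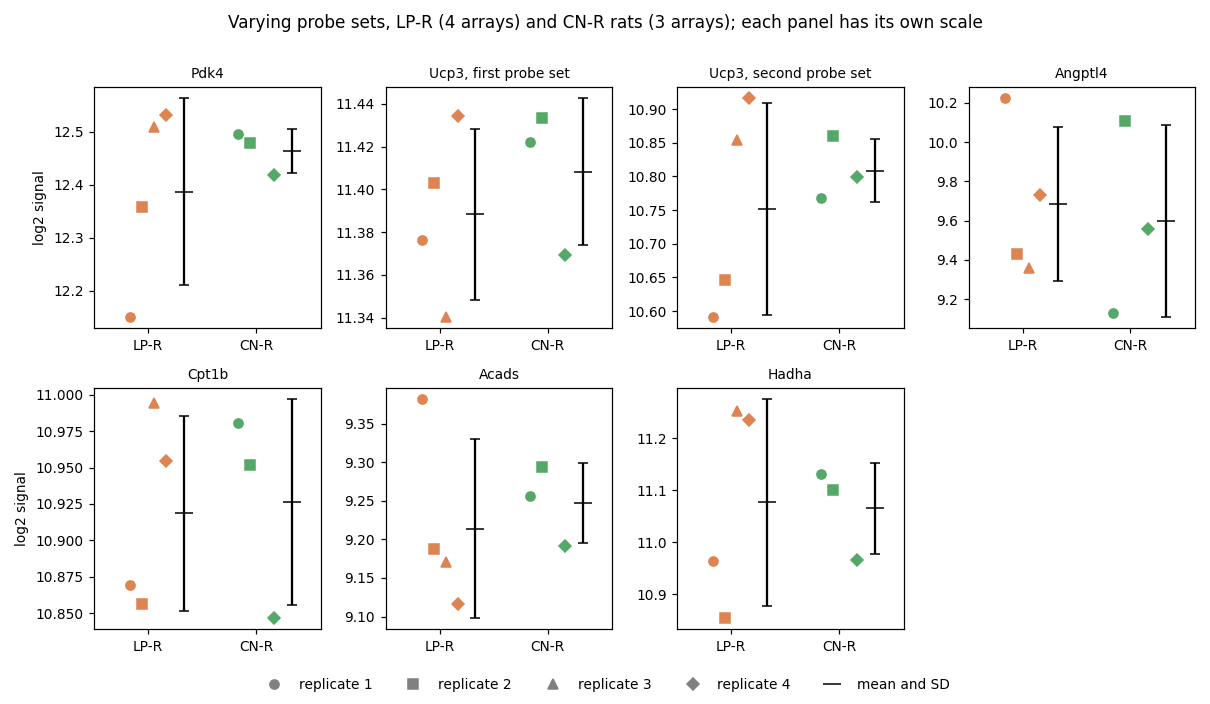
The log2 signal of each LP-R rat (left, n = 4) and CN-R rat (right, n = 3) is plotted for the 7 varying probe sets, with mean and SD beside the points. LP-R replicates 1 and 2 lie below LP-R replicates 3 and 4 for Pdk4, the second Ucp3 probe set, Cpt1b and Hadha, and the groups overlap in every panel.

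Whether a change after restriction differed from that after rebound feeding was tested for the 2073 probe sets that varied in both sets, with 2450 relabellings within the sets. The change in LP minus that in LP-R was -0.16 for Pdk4 (exact permutation p = 0.358), 0.12 and 0.14 for the Ucp3 probe sets (exact permutation p = 0.105 and 0.288) and 0.09 for Cpt1b (exact permutation p = 0.235). For Hadha, Acads and Angptl4 the differences were 0.04, 0.02 and -0.07, with exact permutation p from 0.784 to 0.866. The adjusted p of the 7 lay between 0.659 and 0.971, and the loss of the Pdk4 call after rebound feeding is therefore not shown to be a change of its own.

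By Pearson's r over all rats, Cpt1b and Hadha, both enzymes of long-chain fatty acid use, were the pair most alike in either set. Cpt1b and Hadha correlated at Pearson's r = 0.95 over the 8 early rats (exact permutation p = 0.00124, adjusted p = 0.0608 over 49 pairs) and at r = 0.91 over the 7 late rats (exact permutation p = 0.00873, adjusted p = 0.143). Spearman's rho was 0.93 (exact permutation p = 0.00223) and 0.86 (exact permutation p = 0.0238). With group means taken out r was 0.95 and 0.91, and without the 2 rats farthest from the median of Cpt1b it was 0.92 and 0.85. The rats lay in a low and a high cluster in each set, with LP and CN rats in both early clusters and LP-R and CN-R rats in both late ones, and each cluster is too small to test the relation within it, so the r reflect mainly the distance between the clusters. Acadvl also tracked Hadha in the early set, at r = 0.80 (exact permutation p = 0.0162, adjusted p = 0.199), rho = 0.71 (exact permutation p = 0.0576) and r = 0.66 without the 2 farthest rats. Of the 49 pairs, 6 early and 4 late ones had an unadjusted p under 0.05 and 0 passed after adjustment.

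The r of Pdk4 with Hadha was -0.05 in the early set (exact permutation p = 0.9; rho = 0.07, exact permutation p = 0.882) and 0.70 in the late set (exact permutation p = 0.0621; rho = 0.93, exact permutation p = 0.00675). Without the 2 rats farthest from the median of Pdk4 these r were -0.30 and 0.95. With the second Ucp3 probe set its r was 0.08 in the early set (exact permutation p = 0.854; rho = -0.12, exact permutation p = 0.793) and 0.90 in the late set (exact permutation p = 0.00357, adjusted p = 0.0875; rho = 0.82, exact permutation p = 0.0341). The late value dropped to 0.58 without the 2 farthest rats, LP-R replicates 1 and 2, so it rests on those rats. The difference between the sets was not tested. The 2 Ucp3 probe sets, which read the same gene, correlated at 0.61 in the early set (exact permutation p = 0.107; rho = 0.67, exact permutation p = 0.0831) and at 0.24 in the late set (exact permutation p = 0.59; rho = 0.43, exact permutation p = 0.354). Without the 2 farthest rats their r was 0.62 and 0.95.

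**Figure D4:**
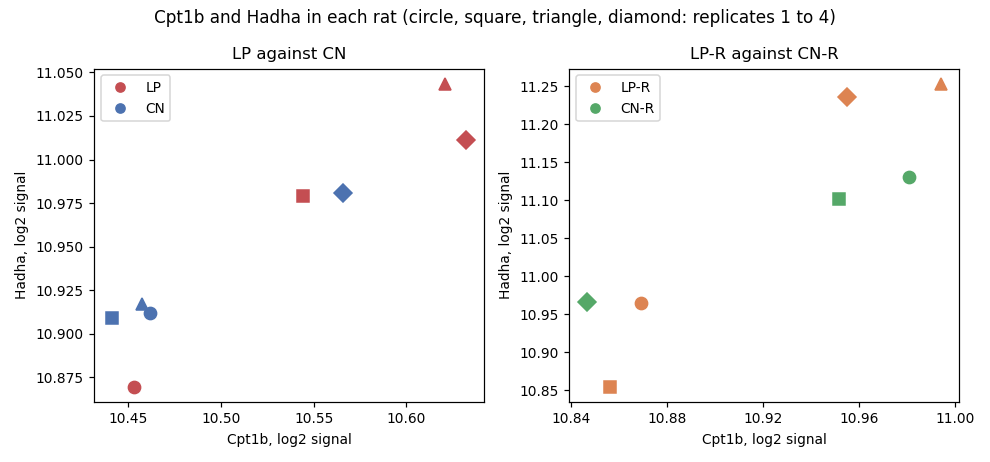
Each point is 1 rat, with the log2 signal of Cpt1b on the horizontal and that of Hadha on the vertical axis, for LP and CN rats on the left and LP-R and CN-R rats on the right. Rats low for Cpt1b were low for Hadha in both panels (r = 0.95 and 0.91), and the low and the high cluster each hold rats of both groups.

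Factors known to regulate these genes included 3 that were called lower in LP rats, Foxo1, Ppargc1a and Klf15. They stood among 17 regulators measured, of which 8 had a varying probe set and 0 were called higher. Of the 12 varying probe sets 5 were called, against 25.5% of all, and 2 had higher means in LP rats, against 57.6% of all, with a median change of -0.08 against 0.02. Foxo1, the factor that drives Pdk4 in fasting, had 7.34, 7.78, 7.87 and 8.00 in LP rats, against 7.71, 7.91, 8.22 and 8.23 in CN rats, a change of -0.27 ± 0.19 (SE; pfp 0.0128) with an exact permutation p of 0.229. Ppargc1a, the coactivator PGC-1alpha, was called on 3 probe sets. On the one that changed most it ran from 7.52 to 9.32 in LP rats and from 7.75 to 10.13 in CN rats, a change of -0.51 ± 0.62 (SE; pfp 0.000417). On the other 2 the changes were -0.06 and -0.07, with pfp of 0.0368 and 0.0335 for lower values. For higher values the pfp of the same 2 were 0.0745 and 0.063, so their direction was not settled. With a range of over 1 log2 unit within each group, the exact permutation p of the 3 were 0.429 to 0.971. Klf15, a glucocorticoid-induced factor of fasting muscle, changed by -0.13 ± 0.21 (SE; pfp 0.0341), with LP replicate 4 the highest of all rats at 9.58. A second Klf15 probe set changed by -0.10 and was not called (pfp 0.158). In LP-R rats 0 of the 17 were called, where 5.16% of all varying probe sets were. Of their 10 varying probe sets 0 had higher means, against 34% of all varying probe sets (median -0.05, against -0.02 for all).

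Of 12 genes of the pyruvate dehydrogenase complex, its other kinases and its phosphatases, 0 were called in either comparison. Of their 17 probe sets only 6 varied in the early and 5 in the late set, and of all varying probe sets 25.5% and 5.16% were called. The 6 changed by -0.10 to 0.07 in LP rats. In the carnitine shuttle and malonyl-CoA list, 1 of 9 genes was called higher and 0 lower in LP rats, on 1 of 4 varying probe sets, a share like the 25.5% of all. It was Acaca, an acetyl-CoA carboxylase, an enzyme that makes malonyl-CoA. Malonyl-CoA inhibits Cpt1b, but it was not measured, and an effect of Acaca on Cpt1b was not tested. Acaca had 7.75, 7.64, 7.45 and 7.58 in LP rats, against 7.29, 7.26, 7.41 and 7.35 in CN rats. Every LP rat lay above every CN rat, the change was 0.28 ± 0.07 (SE; pfp 0.00382), and the exact permutation p of 0.0286 was the smallest possible. In LP-R rats its change was -0.23 ± 0.08 (SE; pfp 0.0562), opposite in sign, and was not called. The exact permutation p of 0.0571 was again the smallest possible, so every LP-R rat lay below every CN-R rat. Adipocytes also express Acaca, and their part in its signal was not tested.

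Among 18 other genes of mitochondrial beta oxidation, 2 were called higher and 0 lower in LP rats, on 2 of 16 varying probe sets, below the 25.5% of all. The mean was higher for 10 of the 16, near the 57.6% of all (median 0.04, against 0.02). Etfb, the subunit of the flavoprotein that takes electrons from the acyl-CoA dehydrogenases, had 11.71, 11.75, 11.83 and 11.69 in LP rats, against 11.66, 11.65, 11.57 and 11.65 in CN rats. Acot13, a mitochondrial acyl-CoA thioesterase, had 10.76, 10.69, 10.89 and 10.65 in LP rats, against 10.60, 10.56, 10.59 and 10.60 in CN rats. For both the groups stood apart, with changes of 0.11 ± 0.04 and 0.16 ± 0.05 (SE; pfp 0.0352 and 0.0214) and exact permutation p of 0.0286. In LP-R rats 0 of the 18 were called, on 16 varying probe sets, against 5.16% of all varying ones, and the median change was -0.01.

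Of 22 genes of fatty acid uptake, release and activation, 4 had a probe set called higher and 1 a probe set called lower in LP rats. The 5 called were of 21 varying probe sets, near the 25.5% of all. With the probe set of highest mean signal alone, 3 genes were called in place of 4. Gpihbp1, which holds lipoprotein lipase on capillary walls, had 9.14, 9.19, 9.14 and 9.09 in LP rats, against 9.06, 8.95, 8.93 and 9.05 in CN rats, a change of 0.14 ± 0.04 (SE; pfp 0.0249). Of 4 varying endothelial marker probe sets 2 were called higher, Kdr and Tie1 (0.40 and 0.14), against 25.5% of all called in either direction. Tek, at 0.10 (pfp 0.0612), and Vwf, at -0.007, were not called. The 4 summed to a linear signal of 1342 to 1428 in LP rats and 1167 to 1277 in CN rats. The part of endothelial cells in the Gpihbp1 signal was not tested. The lipid droplet protein Plin2 changed by 0.19 ± 0.13 (SE; pfp 0.0365) and the lipase inhibitor G0s2 by 0.13 ± 0.38 (SE; pfp 0.0234), both with overlapping groups. A second Plin2 probe set, the brighter, changed by 0.11 ± 0.10 in LP rats and was not called (pfp 0.123). Mgll, which cleaves monoglycerides, was called higher on 1 probe set (0.09 ± 0.04) and lower on another (-0.21 ± 0.13), so its direction was not settled. In LP-R rats 1 of the 22 was called, Plin2 on its brighter probe set, at 0.13 ± 0.06 (SE; pfp 0.0383). That was 1 of 16 varying probe sets, against 5.16% of all varying ones.

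The peroxisomal list (9 genes measured) and the other uncoupling proteins with the ketone enzymes (8 genes measured) had 0 calls in either comparison. Of the 12 probe sets in each list, 4 varied in the early set, where 25.5% of all varying probe sets were called. In the late set 2 peroxisomal and 0 uncoupling and ketone probe sets varied, so no late difference can be read for the latter. Of 7 angiopoietin-like and secreted fasting genes, Fst, the myostatin inhibitor follistatin, was called lower in LP rats at -0.13 ± 0.04 (SE; pfp 0.0315). Its probe set was the only 1 of 8 that varied in the early set. In the late set 0 of the 8 varied, so the 0 calls in LP-R rats are no result about these genes. By limma 0 genes of any list were called in either comparison.

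**Figure D5:**
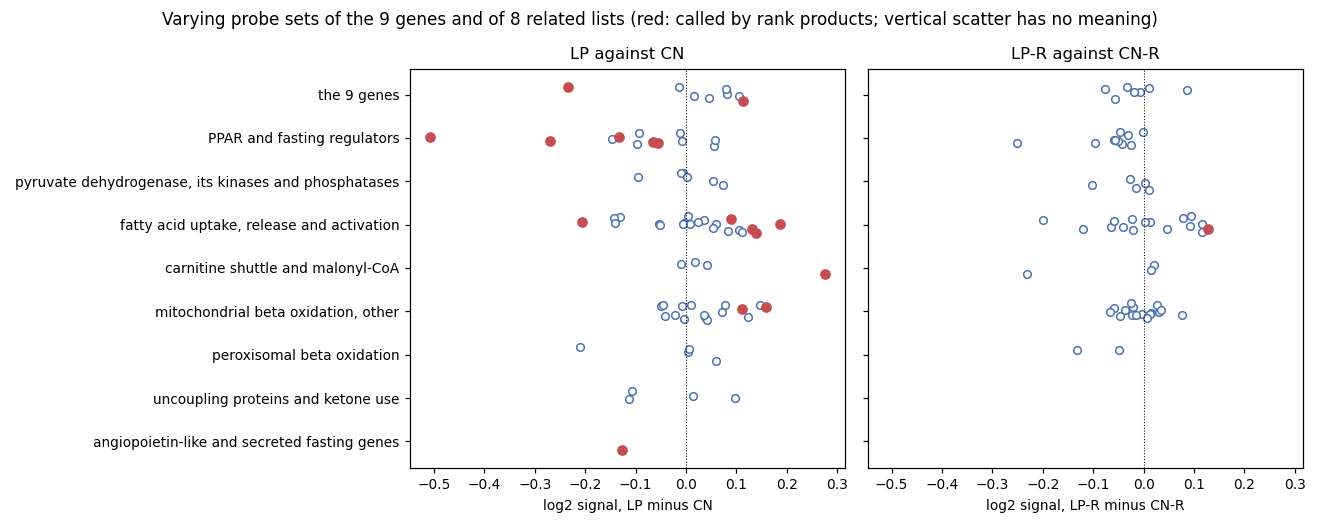
Each point is the mean difference in log2 signal of 1 varying probe set, LP minus CN on the left and LP-R minus CN-R on the right, for the 9 genes and 8 related lists, with called probe sets in red. In LP rats the called regulators lie below 0, down to -0.51, and the called carnitine shuttle and mitochondrial oxidation genes lie above 0, up to 0.28.

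Markers of fibers and of other cells were read beside these genes. The skeletal muscle list had 7 varying probe sets, from 4 of its 8 genes. In LP rats 5 of the 7 had lower and 2 higher means, where 57.6% of all varying probe sets had higher means. Among the lower ones Pygm was called at -0.24 on 1 probe set and was not called at -0.06 on another (pfp 0.0518), and the groups stood apart on both. The 2 with higher means were of Myh1 (0.06 and 0.05), while another varying Myh1 probe set was lower (-0.11). The 7 summed to a linear signal of 27725 to 28427 in LP rats and 28670 to 29471 in CN rats. These ranges did not overlap, but the gap is not a fall of all muscle markers. In LP-R rats the sum of 8 was 23574 to 32671, against 27345 to 28856 in CN-R rats, and the fast myosin Myh1 was called higher on 2 probe sets (0.15 on each). All 9 varying slow fiber probe sets had lower means in LP rats (median -0.09), where 57.6% of all varying probe sets had higher means (median 0.02). Of the 9, 0 were called, and the summed linear signal was 37802 to 47681 in LP rats and 42690 to 50469 in CN rats. In LP-R rats all 11 had lower means (median -0.15), but only 34% of all varying probe sets had higher means there (median -0.02). Of the 11, 1 was called, Myh7 at -0.39, against 5.16% of all varying probe sets. These probe sets read 7 genes of 1 fiber type and are not independent. Slow fibers are rich in the enzymes of fat oxidation. Of the adipocyte markers Adipoq was called higher in LP rats (0.38), where 3 of 4 varying probe sets had higher means, against 57.6% of all. Cfd was called lower in LP-R rats (-0.34), where the 2 varying probe sets summed to 270.8 to 327.8 in LP-R rats and 336.1 to 397.3 in CN-R rats. The part of fiber makeup or fat cells in the signals of the 9 genes was not tested.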

How the data were processed

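RNA of 15 rats was measured, 1 array each. The authors deposited log2 signals made in R by FARMS, whose version is not given in the sources used here. These were not normalized further. The number of arrays limits the precision. Controls (57 probe sets) were dropped. Of the 31042 others, 20826 carry 1 gene symbol in the platform annotation, 436 several and 9780 none.

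Rank products (100 permutations, seed 1) were computed with numpy 2.4.6, pandas 2.3.3 and scipy 1.17.1 under Python 3.11.15, and limma 3.58.1 in R 4.3.3, both fitted on all probe sets and tested on simulated data. The permutations within arrays take all probe sets to vary alike. Exact permutation and limma p-values of a change set it against the spread between these rats. The pfp rests on values permuted among probe sets within each array. It does not set a change of 1 probe set against its own spread between rats.

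The 9 genes, the related lists and the markers were chosen with earlier results of these data known. From each list the called genes were named, at most 4 by smallest limma p. The genes most like Pdk4 were to be found with its probe set of highest mean signal, which was constant, so the varying one was used. Alternatives were other normalizations, filters, fits, pairings, dropping each array in turn, and moving CN-R replicate 4. A term that splits the replicate numbers and centred permutations were added after the values were seen.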

Additional observations from a re-analysis of the deposited data

Results flagged for a closer look

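In CN rats, replicate 4 stood apart as the highest of 4 for Cpt1b (10.57), Hadha (10.98) and the second Ucp3 probe set (10.01), with a gap to the next rat that was large against the range of the group. The rule was applied to 23 groups of 4 values, of which 3 passed, and chance passes about 1 in 20. The 3 values come from 1 rat and are not independent, and the cause was not tested.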

How the results depend on the processing

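Of the 13 probe sets, 2 were called in LP rats. The count was 0 with limma, with limma with a trend and a robust prior, with limma with the replicate block, with limma and a term that set replicate numbers 1 and 2 apart from 3 and 4 (added after seeing the data), and with rank products over varying probe sets only. It was 1 over probe sets above the median signal (Pdk4) and 4 over same-numbered pairs as a replicate block (Pdk4 lower, Acadvl and both Ucp3 probe sets higher). Without 1 array it ran from 0 (without CN replicate 3) to 4 (without CN replicate 4), and was 1 for the other 6. Leaving out arrays with centred values (added after seeing the data), Pdk4 was called in 5 of 8 cases and Acadvl in 0. In LP-R rats the count of 0 became 1 with CN-R replicate 4 counted as LP-R, ran from 0 to 1 without 1 array (1 without CN-R replicate 2) and was 0 under the others. Over all probe sets, rank products called 107 higher and 53 lower in LP-R rats, but 64 and 153 with each probe set centred before permuting, and 521 and 492 in LP rats, but 570 and 517 centred. With varying probe sets alone ranked, these counts fell to 11 higher and 20 lower in LP rats and to 5 and 2 in LP-R rats. Hadha changed sign in LP-R rats with the replicate block (-0.048) and with CN-R replicate 4 counted as LP-R (-0.061). Without 1 array the change ran from -0.15 to 0.20 for Angptl4 in LP rats, and in LP-R rats from -0.15 to 0.34 for Angptl4, -0.048 to 0.019 for Cpt1b, -0.048 to 0.085 for Hadha and -0.13 to 0.0019 for Pdk4. The differences of changes that turned sign ran from -0.014 to 0.075 for Acads, -0.33 to 0.16 for Angptl4 and -0.039 to 0.094 for Hadha. Same-numbered rats deviated together unevenly (r from -0.03 to 0.55 in the early and 0.04 to 0.22 in the late set). For rats of different number r ran from -0.54 to 0.33 in the early and -0.32 to 0.28 in the late set. The main tests used no pairing, and whether same-numbered rats share more than a number was not tested. The block changed no late call, and in the early set rank products over pairs added both Ucp3 probe sets. Quantile normalization and median centring kept both calls and their directions.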

Other observations

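The genes most like Pdk4 from rat to rat were sought among 1658 probe sets with 1 gene symbol that varied in both sets of arrays. They were ranked by the smaller of the 2 values of Pearson's r with the varying Pdk4 probe set, and each gene was kept once. The first 6 were Rbfox1, a splicing factor of muscle (0.93 over 8 early rats and 0.90 over 7 late rats), Keap1, the adaptor that marks the stress factor Nrf2 for breakdown (0.92 and 0.89), Vdac1, a pore of the mitochondrial outer membrane (0.88 and 0.88), Pygm, the muscle glycogen phosphorylase (0.87 and 0.90), Lrpprc, which stabilizes mitochondrial mRNA (0.86 and 0.90), and Neb, the thin filament protein nebulin (0.88 and 0.85). Spearman's rho over the late rats was 0.68 for Rbfox1, 0.64 for Keap1, 0.68 for Vdac1, 0.82 for Pygm, 0.46 for Lrpprc and 0.96 for Neb. The group means were not taken out, so the r also hold the differences between groups. These genes were picked as the highest of many values, so the r are a description without a test, and the rats of a set share array processing. Pygm was itself called lower in LP rats, at 11.55, 11.68, 11.65 and 11.71 in LP rats, against 11.84, 11.86, 11.95 and 11.91 in CN rats (pfp 0.0056). The groups stood apart on this probe set and on the other varying Pygm probe set, which was not called (pfp 0.0518).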
